A study of Sus scrofa with 48 samples.

Results

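Glyceroneogenesis is the making of glycerol 3-phosphate from pyruvate and its relatives instead of from glucose, and 4 genes of this route were examined in perirenal adipose tissue (PRAT), the visceral fat around the pig kidney. The genes were PCK1, PCK2, PC and GPD1, taken by the gene name written beside each spot of the scanner files, out of 11225 genes named on the array and 8829 with a probe that passed the spot filter of the authors. The set was chosen by the measured diet difference of PCK1, the largest rise on the high-fat high-fiber diet of all 8829 genes, so the diet differences of the 4 genes are given as a description, with no test. Tests are given for the line, for the interaction of diet and line, and for genes outside the set.

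A fat cell needs glycerol 3-phosphate as the backbone of each triglyceride it stores. Pyruvate carboxylase (PC) turns pyruvate into oxaloacetate in the mitochondrion. Phosphoenolpyruvate carboxykinase then makes phosphoenolpyruvate, in the cytosol when the enzyme is PCK1 and in the mitochondrion when it is PCK2. After several reversed steps of glycolysis, the glycerol 3-phosphate dehydrogenase GPD1 reduces dihydroxyacetone phosphate to glycerol 3-phosphate, a step that glucose-derived carbon also uses. In fat cells the route is known for returning fatty acids freed by lipolysis to triglyceride when glucose is scarce, and PCK1 is known as a gene controlled mainly by its transcription. PCK1 and PC are also strongly expressed in the liver and the kidney cortex.

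RNA of 48 castrated male Large White pigs was measured, with 12 pigs in each of 4 groups that shared the age of 132 days in the labels. One line had been selected for low residual feed intake (low RFI, RFIneg in the labels), which means eating less than growth predicts, and the other for high residual feed intake (high RFI, RFIpl in the labels). Each line was given free access to either the high-fat high-fiber (HF) diet, with plant oils and wheat straw, or the low-fat low-fiber (LF) diet, in which cereal starch held the place of the oils. Fat, fiber and starch changed together between the diets, so their parts cannot be told apart. The paper reports that HF pigs also ate less, were lighter at the end and had less perirenal fat for their weight. These differences came with the diet and cannot be told apart from it. The tissue is bulk, so more cells with a transcript and more transcript per cell cannot be told apart either.

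The array carried 17 probes for the 4 genes, each 60 bases long, and 16 passed the filter: 6 for PCK1, 2 of 3 for PCK2, 3 for PC and 5 for GPD1. The following probes, each with a reading frame open up to its last codon, are shown, 1 for each gene, because PCK1 and PCK2 are paralogs whose signals could be confused. In the PCK1 and PCK2 probes, capitals mark the bases that differ when both are laid over each other without gaps. In the PC probe, capitals mark a stop codon in that frame, and the GPD1 probe is all in lower case. The files map none of them to a genome position.
PCK1: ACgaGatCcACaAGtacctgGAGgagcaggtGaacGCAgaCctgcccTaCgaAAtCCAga
PCK2: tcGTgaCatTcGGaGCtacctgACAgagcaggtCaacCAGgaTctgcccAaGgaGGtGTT
PC: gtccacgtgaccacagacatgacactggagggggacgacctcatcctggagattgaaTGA
GPD1: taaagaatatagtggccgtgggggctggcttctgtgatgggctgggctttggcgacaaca
The PCK1 and PCK2 probes covered the same stretch of the paralogs over 58 bases and shared 35 of them (60.3%). They differed at 23 bases spread along the stretch. No probe of the 4 genes was saturated on any array, and 15 of the 17 were well above background on all 48 arrays.

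Values are log2 of the spot intensity minus the median of the gene probes on the same array, so 1 unit is a doubling and each value is relative to the median probe of its array. Each gene is represented by its brightest probe, and levels of different genes are not compared because probes differ in brightness. Differences are HF minus LF or low RFI minus high RFI. A probe or gene was called at a raw p under 0.01, a fold change over 1.1 and a Benjamini-Hochberg (BH) adjusted p under 0.08 in limma, over 38142 probes. Each array had 35787 to 38118 of these probes well above background, and the number of arrays limits the precision. All 9 adipocyte markers were well above background on all 48 arrays. Of 11 kidney markers on the array, AQP2, SLC22A6 and GATM passed the same test on every array. CUBN passed it on 31 arrays, and the other 7, among them SLC12A1, LRP2 and NPHS1, on 0 to 3.

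Liver transcripts stood out in some libraries. ALB (albumin) ranged from -1.65 to 9.11 on the log2 scale with a median of 0.57. It was above 4 in 14 libraries, with 5 of 12 in the HF low RFI group, 0 in the HF high RFI group, 5 in the LF low RFI group and 4 in the LF high RFI group. The differences and relations of the 4 genes were therefore also computed without these 14 libraries. Macrophage markers moved with diet, as 6 of 9 were called higher in HF pigs and none lower, against 6.25% higher and 19.5% lower over all genes. C1QC, which codes for a chain of the complement component C1q, was higher by 0.81 ± 0.25 (SE), with C1QA and C1QB at 0.80 and 0.76 and BH p of 0.011, 0.0142 and 0.0144 in limma. The median difference of the 9 macrophage markers was 0.66 against -0.047 over all genes, and their summed linear level ran from 46.2 to 381 in HF pigs and from 35.4 to 305 in LF pigs.

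PCK1, the cytosolic enzyme, was higher in HF pigs. In the HF low RFI pigs, its level ran from 4.65 over a median of 7.46 to 8.80, with a mean of 7.28 ± 1.08 (SD, n = 12). In the HF high RFI pigs it ran from 4.74 over 7.03 to 9.29, with a mean of 7.19 ± 1.44. Both LF groups lay lower on average but reached far into the HF range. In the LF low RFI pigs the level ran from 4.45 over 5.66 to 7.76, with a mean of 5.73 ± 0.96 (SD, n = 12). In the LF high RFI pigs it ran from 2.53 over 5.73 to 6.98, with a mean of 5.29 ± 1.54. The lowest values of all 48 pigs were in the LF high RFI group and the highest in the HF high RFI group.

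The diet difference of PCK1 was 1.72 on the log2 scale, a fold change of 3.3. It was 1.55 (2.93-fold) within the low RFI line and 1.90 (3.72-fold) within the high RFI line. The ranges overlapped: 8 of 24 HF pigs lay above every LF pig, 5 of 24 LF pigs lay below every HF pig, 3 HF pigs lay below the LF mean and 1 LF pig lay above the HF mean. The difference was above 0 on each of the 6 slides, from 1.29 to 2.35, and was 1.64 and 1.80 on the 2 scan days. Without the 14 libraries with high albumin it was 1.37 on the log2 scale.

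**Figure D1:**
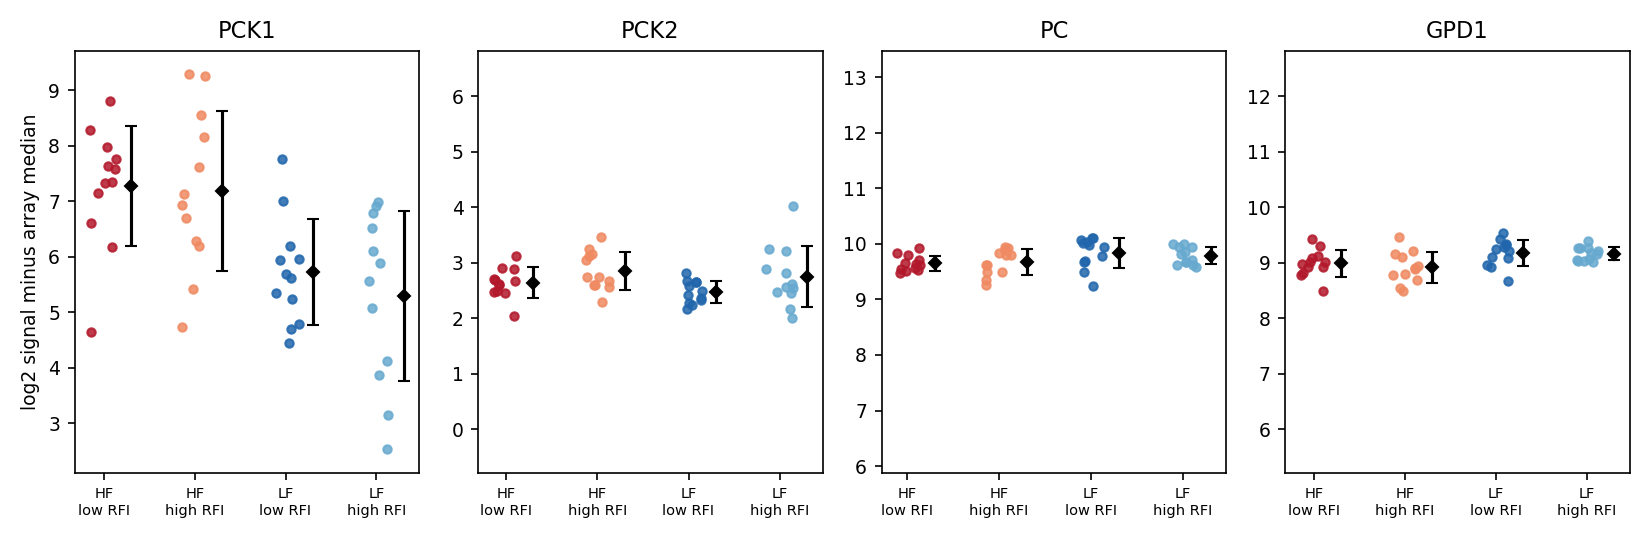
Level of PCK1, PCK2, PC and GPD1 in each of the 48 pigs, as log2 signal minus the array median, at the brightest probe of each gene (points: pigs; diamonds and bars: mean ± SD of 12 pigs). The 4 vertical axes cover the same number of log2 units, and the PCK1 points spread from 2.53 to 9.29 while the PC points stay between 9.25 and 10.11.

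The genes next to PCK1 in the size of the rise lay below it. CLDN4, a tight junction claudin, differed by 1.39 on the log2 scale, and RBP5, a retinol-binding protein, by 1.07. SAL1, a salivary lipocalin, differed by 1.03, ADAM28, a membrane metalloprotease, by 0.96, and SPEF2, a sperm flagellar protein, by 0.95. These values, with 1.72 for PCK1, are a description of the ranking that chose PCK1. Of all 8829 genes, 25.7% were called between diets in limma, 6.25% higher and 19.5% lower in HF pigs. Of the 38142 probes, 24.5% were called, 8.97% higher and 15.5% lower.

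The 6 PCK1 probes differed little among themselves. Their diet differences ran from 1.65 to 1.74, and after subtraction of the group means their pairwise r was 0.994 or higher over the 48 pigs. Some of them read nearly the same bases: probes 3 and 4 shared a run of 35 bases, and probe 2 shared runs of 19 and 22 bases with them. The PCK1 probe printed above shared no run longer than 6 bases with the others and differed by 1.68 between diets. Probes of PCK1 are repeat measurements of the same pigs and not replicates.

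The spread of PCK1 between pigs of a group was one of the widest on the array. Its SD within groups was 1.28 on the log2 scale, a 2.42-fold step, against a median of 0.20 (1.15-fold) over the kept probes. Of 38142 kept probes, 145 (0.38%) had a larger SD. Repeated probes differed far less, as the difference between the 2 brightest PCK1 probes had an SD of 0.085 over the 48 pigs. The diet difference of PCK1 was 1.35 times its SD within groups. For PCK2 the SD within groups was 0.36, exceeded by 12.9% of the kept probes, for GPD1 it was 0.23 (exceeded by 39.0%) and for PC 0.21 (exceeded by 49.0%).

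PCK2, the mitochondrial enzyme and a target of the stress-induced factor ATF4, lay at similar levels on both diets. Its brightest probe had a mean of 2.75 ± 0.32 (SD, n = 24) in HF pigs and 2.61 ± 0.43 in LF pigs. The ranges lay on top of each other, with 2.05 to 3.47 in HF pigs and 2.01 to 4.03 in LF pigs. The diet difference was 0.14 on the log2 scale at this probe and -0.019 at the PCK2 probe printed above, so the direction depended on the probe. At the brightest probe the difference was above 0 on 5 of 6 slides and -0.13 on the sixth. The third PCK2 probe was well above background on 1 of 48 arrays and was not among the kept probes.

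PC, the entry enzyme, and GPD1, the last enzyme, had slightly lower means in HF pigs. PC had a mean of 9.66 ± 0.19 (SD, n = 24) in HF pigs and 9.82 ± 0.22 in LF pigs, with ranges of 9.25 to 9.95 and 9.25 to 10.11. Its difference was -0.15 on the log2 scale, and 18 of 24 HF pigs had less PC than the LF mean. The other PC probes differed by -0.16 and -0.22. GPD1 had a mean of 8.96 ± 0.26 in HF pigs and 9.17 ± 0.19 in LF pigs, with ranges of 8.50 to 9.46 and 8.67 to 9.54. Its difference was -0.22, and GPD1 was under the LF mean in 20 of 24 HF pigs. Both genes were lower in HF pigs on 5 of 6 slides, and on the sixth the differences were 0.034 for PC and 0.024 for GPD1.

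The 5 GPD1 probes differed between diets by -0.22 to -0.16. GPD1 probes 2 and 3 carry the same 60 bases, and their difference over the 48 pigs had an SD of 0.054. Without the libraries with high albumin, the diet differences were -0.33 for GPD1, -0.27 for PC and 0.23 for PCK2. Both PC and GPD1 followed the adipocyte markers from pig to pig, with r of 0.76 and 0.75 against the mean of the 9 adipocyte markers, and ran against the macrophage markers, with r of -0.52 and -0.51. For PCK1 these r were 0.019 and 0.10, but its r with the adipocyte markers was -0.27 in HF pigs and 0.27 in LF pigs. The part of cell composition in the diet differences was not tested.

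**Figure D2:**
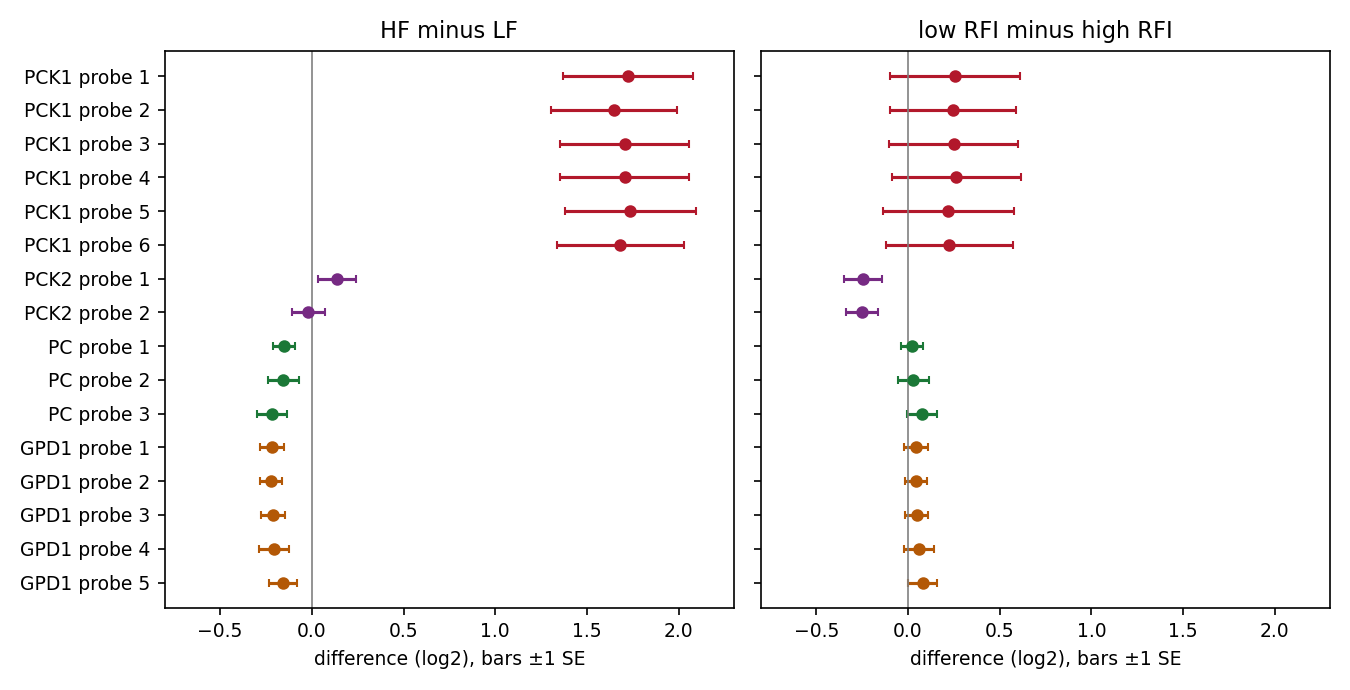
Difference between diets (left) and between lines (right) for the 16 kept probes of the 4 genes, on the log2 scale with bars of ±1 SE from limma. On the left the bars only describe the fit and are no test, since PCK1 was chosen by its diet difference. All 6 PCK1 probes lie between 1.65 and 1.74 on the left, the PC and GPD1 probes lie below 0 on the left, and the 2 PCK2 probes lie near -0.25 on the right.

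The second comparison asked whether the lines selected for feed efficiency differed. None of the 16 kept probes of the 4 genes was called between lines, against 3.6% of all 38142 probes (1.83% higher and 1.77% lower in the low RFI line) and 3.27% of all genes, and the lowest BH p was 0.132 in limma. PCK1 had a mean of 6.50 ± 1.27 (SD, n = 24) in the low RFI line and 6.24 ± 1.75 in the high RFI line. The difference was 0.26 ± 0.36 (SE), with a 95% interval from -0.46 to 0.97 and a BH p of 0.842 in limma. On the 2 scan days the line difference of PCK1 pointed in opposite directions, at -0.21 and 0.73.

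PCK2 came closest to a line difference. Its brightest probe had a mean of 2.56 ± 0.25 (SD, n = 24) in the low RFI line and 2.80 ± 0.45 in the high RFI line. The difference was -0.25 ± 0.10 (SE), with a 95% interval from -0.45 to -0.040, a raw p of 0.0203 and a BH p of 0.249 in limma. It was -0.21 in HF pigs and -0.28 in LF pigs, and 20 of 24 low RFI pigs lay below the high RFI mean. The second kept probe also differed by -0.25, with a raw p of 0.00666 and the BH p of 0.132. The pig with the highest PCK2 level, at 4.03 against 3.47 for the next, was the LF high RFI pig with the highest albumin level of all, at 9.11. Without the 14 libraries with high albumin, the difference was -0.22 with a BH p of 0.442 in limma.

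PC and GPD1 differed little between lines. The difference was 0.020 ± 0.059 (SE) for PC, with a 95% interval from -0.099 to 0.14 and a BH p of 0.942 in limma. For GPD1 it was 0.043 ± 0.066, with an interval from -0.089 to 0.18 and a BH p of 0.863.

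The third comparison asked whether the response to diet depended on the line. No probe of the array was called for the interaction in limma, 826 probes (2.17%) had a raw p under 0.05, and the two-way ANOVA without moderation called 0 as well. None of the 16 probes of the 4 genes had a raw p under 0.05, and the lowest was 0.512. For PCK1, the diet difference in the low RFI line minus that in the high RFI line was -0.35 ± 0.71 (SE). Its 95% interval ran from -1.78 to 1.09, so a line-dependent response of more than 2-fold in either direction was within the error. For GPD1 the interval ran from -0.20 to 0.33 and for PC from -0.31 to 0.16.

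Genes around the 4 were read in 7 lists that held 132 genes, of which 108 had a kept probe. In limma, 9 of these 108 genes were called higher and 36 lower in HF pigs, and the median difference was -0.082 on the log2 scale against -0.047 over all genes. Over all 8829 genes 6.25% were called higher and 19.5% lower. The share of calls that were higher depended on the scaling over the whole array: 3423 probes were called higher and 5912 lower, but 5022 and 4924 when the background-subtracted signal was scaled to the 75th percentile.

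The gluconeogenic partners, enzymes and carriers that handle the same metabolites in the liver, were called lower or not called. Of 21 genes with a kept probe, 13 were called lower, 0 higher and 8 in neither direction, and the median was -0.25. With quantile normalization 10 were called lower. MPC2, a subunit of the mitochondrial pyruvate carrier, fell by 0.74 ± 0.12 (SE) with a BH p of 1.92e-05 in limma. SLC25A1, the mitochondrial citrate carrier, fell by 0.67, and GOT1, the cytosolic aspartate aminotransferase that shuttles oxaloacetate, fell by 0.49 and was under the LF mean in all 24 HF pigs. ALDOA, TPI1, GPI, PGK1 and ENO1, also called lower, are enzymes that glycolysis uses too. TPI1 lost its call in 4 scalings of the arrays, with -0.14 as the value nearest to 0. GPI lost its call in both settings with quantile normalization (-0.10). FBP1 and FBP2, fructose bisphosphatases of gluconeogenesis, differed by 0.076 and 0.14, and G6PC, the glucose 6-phosphatase of the liver, by -0.10. None of these 3 was called. G6PC lay below the array median, with means of -0.85 in HF pigs and -0.75 in LF pigs.

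The list of pyruvate disposal holds enzymes that compete with PC for pyruvate, enzymes that make it from malate or phosphoenolpyruvate, and kinases of pyruvate dehydrogenase. Of 13 genes, 8 were called lower and 1 higher, with a median of -0.38. ME1, the cytosolic malic enzyme that yields NADPH for fatty acid synthesis, fell by 1.25 ± 0.19 (SE), a 2.37-fold lower level, with a BH p of 6.31e-06 in limma. PDHB and DLAT, subunits of the pyruvate dehydrogenase complex, fell by 0.72 and 0.71, and both were under the LF mean in all 24 HF pigs. PDK4, a kinase that switches this complex off, was the gene that rose, by 0.83 ± 0.23 (SE; BH p of 0.00627 in limma). Its mean was 5.88 ± 0.89 (SD, n = 24) in HF pigs and 5.06 ± 0.78 in LF pigs. PDK1, another kinase of this complex, was among the 8 genes called lower. Without the libraries with high albumin, PDK4 differed by 0.64 with a BH p of 0.134, so its call ended.

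In the list of glycerol phosphate and esterification, 1 of 18 genes was called higher and 4 lower, with a median of -0.10. LPIN3, a phosphatidate phosphatase, rose by 0.25 ± 0.07 (SE; BH p of 0.00331 in limma), and its call ended without the libraries with high albumin (0.19, BH p of 0.0931) and at the mean of its 2 probes (0.13). AGPAT1 and AGPAT2, which add the second fatty acid, fell by 0.40 and 0.39, and GPAM, the mitochondrial glycerol phosphate acyltransferase, fell by 0.22. GK, the glycerol kinase that makes glycerol 3-phosphate directly from glycerol, differed by 0.18 ± 0.14 with a BH p of 0.31 and was not called. GPD1L and GPD2, the other glycerol phosphate dehydrogenases, differed by -0.081 and -0.082 and were not called.

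Among 12 genes of lipolysis and fatty acid release, 1 was called higher and 3 lower, and without the libraries with high albumin 0 and 5. AQP3, a channel that passes water and glycerol, rose by 0.75 ± 0.17 (SE), from a mean of 4.09 ± 0.52 (SD, n = 24) in LF pigs to 4.84 ± 0.69 in HF pigs, with a BH p of 0.000806 in limma. Without the libraries with high albumin AQP3 differed by 0.51 with a BH p of 0.086. CIDEA and CIDEC, proteins of the lipid droplet, fell by 0.42 and 0.24, and MGLL, the monoacylglycerol lipase, fell by 0.37. The main triglyceride lipases PNPLA2 and LIPE differed by 0.021 and -0.14, and neither was called.

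The targets of PPARG in the fat cell, to which PCK1 also belongs, gave counts that depended on the setting. Of 17 genes, 2 were called higher, namely PDK4 and UCP2 (an uncoupling protein, 0.45), and 3 lower, namely SCD (stearoyl-CoA desaturase, -0.75), CIDEC and CEBPA (a factor of fat cell differentiation, -0.16). UCP2 lost its call without the libraries with high albumin, at 0.42 with a BH p of 0.0884 in limma. Without those libraries 0 of the 17 were called higher and 7 lower, and with normexp and quantile normalization 5 were called higher and 2 lower. CEBPA lost its call in 4 scalings of the arrays, with -0.088 as the value nearest to 0.

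Of 24 regulators of PCK1 transcription, 4 were called higher and 5 lower, with a median of 0.02. At the mean of a gene's probes 1 was called higher and 4 lower, and without the libraries with high albumin 1 and 5. PPARA, the fatty acid receptor best known from liver, rose by 0.53 ± 0.18 (SE), RXRG, a partner of nuclear receptors, by 0.44 and the thyroid hormone receptor THRB by 0.25. PPARD fell by 0.67 ± 0.13, a 1.59-fold lower level found under the LF mean in 23 of 24 HF pigs, with a BH p of 0.000119 in limma. ESRRA, an estrogen-related receptor, fell by 0.20 and PPARG by 0.19 ± 0.07. PPARA lost its call at the mean of its 3 probes (0.13, BH p of 0.242) and without the libraries with high albumin (0.40, BH p of 0.178). PPARG lost its call in 8 of 14 alternatives, with values from -0.19 to -0.11. By quantitative PCR on perirenal fat of the same pigs, the paper reports PPARG as higher on the HF diet, opposite to the array value here. For PPARA it reports a change, a fall, only in subcutaneous fat. PPARD and RXRG had the same directions there as here. THRB lost its call at the mean of its probes (0.15) and without the libraries with high albumin (0.17), and ESRRA lost it in both settings with quantile normalization (-0.11). The other 15 regulators were not called. Among them, FOXO1, CREB1 and the glucocorticoid receptor NR3C1, which carry the fasting signal to PCK1 in the liver, differed by 0.015, 0.010 and 0.052.

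In the ATF4 program, to which PCK2 belongs, 1 of 9 genes was called higher and 2 lower. PHGDH, the first enzyme of serine synthesis, rose by 0.52 ± 0.11 (SE; BH p of 0.000325 in limma), and its call ended without the libraries with high albumin, at 0.29 with a BH p of 0.0562. ATF4 itself fell by 0.36 and was under the LF mean in all 24 HF pigs, and ASNS, the asparagine synthetase, fell by 0.21. ASNS lost its call with the background-subtracted signal scaled to the 75th percentile (-0.21, BH p of 0.0465). Without the libraries with high albumin, 3 of the 108 genes were called higher and 44 lower, with 34 pigs in place of 48.

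**Figure D3:**
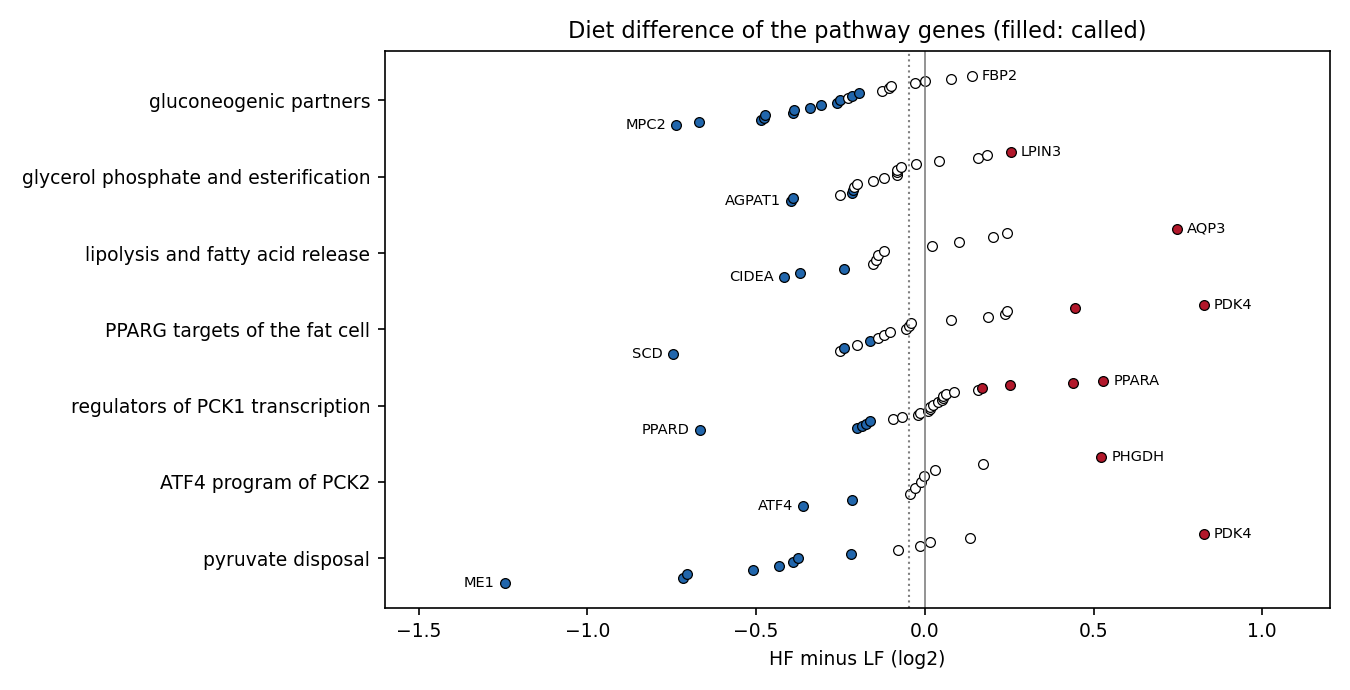
Diet difference (HF minus LF, log2) of each gene with a kept probe in the 7 lists around glyceroneogenesis, with the highest and the lowest gene of each list named. Filled points were called in limma (red: higher in HF, blue: lower), the dotted line is the median of all 8829 genes at -0.047, and the lists of gluconeogenic partners and pyruvate disposal lie mostly to its left.

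Of 9 adipocyte markers, 2 were called lower in HF pigs and 0 higher, namely LEP (leptin), which fell by 0.94 ± 0.15 (SE; BH p of 5.33e-06 in limma), and CIDEC, and their summed linear level ran from 5779 to 7609 in HF pigs and from 5965 to 7969 in LF pigs. Over all genes 19.5% were called lower, a share near that of 2 in 9. Without the libraries with high albumin 6 of the 9 adipocyte markers were called lower, and their median moved from -0.12 to -0.20. In the T and NK cell list 1 of 5 genes was called, CD3G, which rose by 0.34. In the endothelium list 1 of 6 was called, CLDN5, which rose by 0.30. Over all genes 6.25% were called higher. CD3G lost its call at the mean of its probes and CLDN5 without the libraries with high albumin. Of 3 kept kidney markers, AQP2 fell by 0.63 and GATM rose by 0.49, and of 3 kept brown fat markers CIDEA fell by 0.42 and COX7A1 by 0.32, with ELOVL3 well above background on 0 arrays. At the brightest probe, no marker was called between diets in the lists of B and plasma cell, fibroblast, adrenal, liver, muscle, erythrocyte and mesothelium. The median difference of the 7 kept liver markers was -1.39 with all libraries and -0.10 without the 14 with high albumin, and with all libraries their summed level ran from 248 to 447 in HF pigs and from 216 to 1730 in LF pigs.

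Between lines, 4 of the 108 genes were called higher in the low RFI line and 0 lower, while 1.88% of all genes were called higher and 1.39% lower. With the replicate number as a block 8 were called higher. FBP2, the fructose bisphosphatase of muscle, was higher by 0.64 ± 0.13 (SE; BH p of 0.00107 in limma), and PDK1, a second pyruvate dehydrogenase kinase, by 0.48 ± 0.07 (BH p of 2.5e-05). PLIN2, a lipid droplet coat protein, was higher by 0.66 (BH p of 0.00135) and ASNS by 0.24 (BH p of 0.0547). The calls of PLIN2 and ASNS ended without the libraries with high albumin, at BH p of 0.101 and 0.21.

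The 4 genes were then compared from pig to pig, after the mean of each diet and line group was subtracted. GPD1 and PC rose and fell together, with r = 0.81 and rho = 0.83 over 48 pigs, and both permutation p-values were 1e-05, the smallest that 100000 two-sided permutations of pigs within groups can give (BH p of 6e-05 over the 6 pairs). The relation held within HF pigs (r = 0.80), within LF pigs (r = 0.86), within each slide (r from 0.45 to 0.93), on both scan days (0.75 and 0.85) and without the 2 pigs farthest from the median (r = 0.78). Both genes also followed the adipocyte markers, as given above, and whether the share of fat cells accounts for the relation was not tested.

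No relation of PCK1 with the other 3 genes passed the test. Its r was 0.073 with GPD1 (permutation p of 0.622, BH p of 0.622), 0.20 with PC (permutation p of 0.171, BH p of 0.324) and 0.21 with PCK2 (permutation p of 0.226, BH p of 0.324), with rho of 0.055, 0.21 and 0.20. Without the 2 pigs farthest from the PCK1 median these r were 0.044, 0.19 and 0.14. PCK2 had r = 0.21 with GPD1 and r = 0.15 with PC, with permutation p-values of 0.102 and 0.27 and BH p of 0.305 and 0.324. Its rho was 0.24 with GPD1 and 0.25 with PC, and without the 2 pigs farthest from the PCK2 median its r was 0.33 and 0.28. Within slides and scan days, r ran from -0.56 to 0.79 for PCK1 and PCK2, and from -0.57 to 0.72 for PCK2 and GPD1. It ran from -0.10 to 0.62 for PCK2 and PC, from -0.16 to 0.78 for PCK1 and PC, and from -0.30 to 0.44 for PCK1 and GPD1.

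The pairs with PCK2 depended on which pigs were read. Without the 14 libraries with high albumin, r was 0.40 with PCK1, 0.48 with GPD1 and 0.43 with PC, with permutation BH p of 0.0460, 0.0252 and 0.0431 over the 6 pairs. Within HF pigs r was 0.47, 0.49 and 0.53 (permutation BH p of 0.0415, 0.0415 and 0.0393), and within LF pigs it was 0.0094, -0.057 and -0.099. The difference between the diets was not tested.

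PCK1 was also set against the mean of each of 13 marker lists. Over all pigs none had a BH p under 0.05. The r values ran from -0.21 for liver to 0.25 for endothelium, with rho of -0.22 and 0.22. Their raw permutation p-values were 0.161 and 0.11. For the adipocyte markers r was 0.019, with a rho of 0.0039 and a permutation p of 0.9. For the macrophage markers it was 0.10, with a rho of 0.051 and a permutation p of 0.477. Some lists had opposite signs on the diets. In HF and LF pigs taken alone, r was -0.27 and 0.27 for adipocyte and 0.46 and -0.13 for T and NK cell. It was -0.15 and 0.52 for adrenal. Signs also differed for B and plasma cell, fibroblast and mesothelium. They were the same for the remaining lists, with 0.12 and 0.084 for macrophage. Whether these r differed between the diets was not tested.

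The genes whose pattern was most like that of PCK1 are given as a description, without a p, out of 8828 other genes compared over the 48 pigs on the same arrays. CPT1A, the carnitine palmitoyltransferase that commits fatty acids to mitochondrial oxidation, had the highest r, at 0.71. HSDL2, a peroxisomal dehydrogenase-like protein, followed with 0.65 and SLC25A20, the carnitine-acylcarnitine carrier of the mitochondrion, with 0.63. ARL6IP6 and ZNF532 had r of 0.62 and 0.60. In HF and LF pigs taken alone, the r of CPT1A was 0.76 and 0.66, that of HSDL2 0.71 and 0.60 and that of SLC25A20 0.68 and 0.61.

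At the other end stood GDPD5, a glycerophosphodiester phosphodiesterase, with r = -0.62, and CKB, the brain-type creatine kinase, also with -0.62. MLXIPL, the carbohydrate-sensing factor ChREBP, had r = -0.61, SLC24A3, a sodium-calcium exchanger, -0.61 and PNPLA3, a lipase-like protein induced by carbohydrate feeding, -0.60. MLXIPL kept r of -0.62 in HF pigs and -0.60 in LF pigs, while CKB had -0.77 and -0.44 and PNPLA3 -0.80 and -0.35. In all, 49 genes had r above 0.5 and 17 below -0.5, and the median was 0.024. After slide means were subtracted too, CPT1A had r = 0.70 and MLXIPL -0.63.

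These neighbours differed in their own response to diet. CPT1A rose in HF pigs by 0.32 ± 0.09 (SE; BH p of 0.00518 in limma), and ZNF532 rose by 0.17. PNPLA3 fell by 1.23 ± 0.20 (BH p of 1.6e-05), CKB by 0.996, MLXIPL by 0.62 and SLC24A3 by 0.53. HSDL2 differed by 0.24, SLC25A20 by 0.055, ARL6IP6 by 0.10 and GDPD5 by -0.15, and none of these 4 was called.

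Over the 108 genes of the lists, the median r with PCK1 was 0.020, and the following were chosen after their values were seen. PDK4 and GK had the highest r, both 0.52, then AQP3 with 0.47, the orphan receptor ESRRG with 0.46, the fatty acid transporter CD36 with 0.45 and ABHD5, the activator of the lipase PNPLA2, with 0.43. PDK4 had 0.55 in HF pigs and 0.50 in LF pigs, and GK had 0.47 and 0.58. The lowest were PPARD with -0.45, AGPAT2 with -0.42 and the lactate dehydrogenase LDHA with -0.41. In HF and LF pigs taken alone, r was -0.48 and -0.43 for PPARD, -0.51 and -0.35 for AGPAT2 and -0.62 and -0.18 for LDHA. Some genes with r near 0 over all pigs had opposite signs on the diets. ENO1 had -0.65 in HF pigs and 0.21 in LF pigs, and MDH1 had -0.53 and 0.37. The difference between the diets was not tested for these r. PPARG had r = 0.13.

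**Figure D4:**
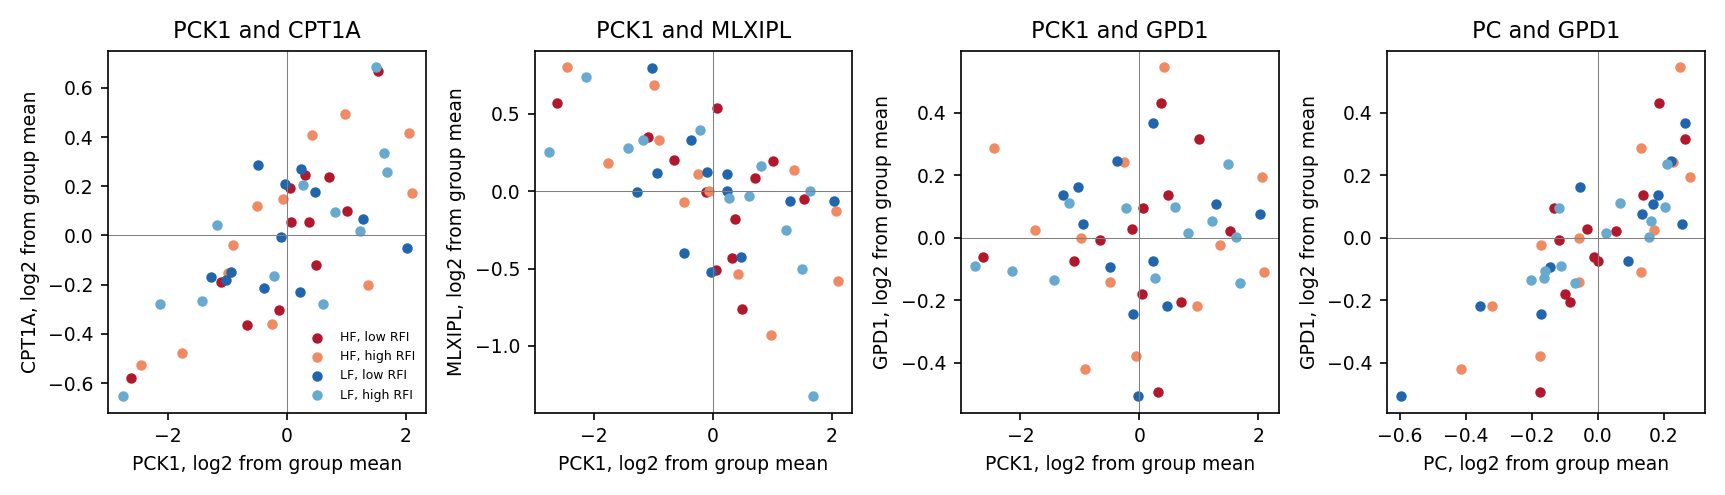
Deviation of each of 48 pigs from the mean of its diet and line group (log2), for PCK1 against CPT1A, MLXIPL and GPD1 and for PC against GPD1, with groups in colour. CPT1A rises with PCK1 (r = 0.71), MLXIPL falls (r = -0.61), GPD1 shows no clear relation with PCK1 (r = 0.073), and GPD1 follows PC (r = 0.81).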

How the data were processed

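Total RNA of perirenal fat was labelled with Cy3, 1 pig per one-colour array. The authors read the arrays with Agilent Feature Extraction 10.7.3.1 and deposited spot intensity values without normalization between arrays. The authors also deposited log2 values of 38142 probes, made in R 2.10.0 (filter on intensity, uniformity, saturation and outliers, log2 of the Cy3 signal, centring on the array median). Every entry of that table equalled log2 of the median intensity of 1 spot, without background subtraction, after centring (tolerance 1e-06). Its name was that of the spot in 2 of 38142 cases, so entries were matched to spots by value. The deposited values served to find the kept spots and as an alternative scaling. The genome build is not given in the sources used here.

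Log2 of the median intensity minus the array median over 60306 gene probes was computed for each array. Of the 38142 kept probes, 16496 were named by the files, 1146 by their accession, 152 by a synonym in the RefSeq gene table (Sscrofa11.1), 5 by an older symbol, and 20343 stayed unnamed. A gene was read at its brightest kept probe. Diet, line and interaction were fitted over the 38142 probes with limma 3.58.1 in R 4.3.3 (lmFit, eBayes), and the fit was tested on simulated data. Relations between pigs used 100000 permutations within groups. Arrays lay on 6 slides with 2 arrays of each group, and 3 slides were scanned on each of 2 days. No 2 arrays held identical values.

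Genes named were all probes of the 4 genes, the 5 genes next to PCK1 in diet difference, in each pathway list up to 3 called rises and 3 called falls, for line every called gene of the lists, the 5 highest and 5 lowest r with PCK1, and up to 3 called genes of a marker list. Some genes that were not called, such as FBP1, GK, PNPLA2 and FOXO1, were named outside this rule. Members and lists were chosen with earlier results of these data known. The 13 marker lists were adipocyte, macrophage, T and NK cell, B and plasma cell, endothelium, fibroblast, kidney, adrenal, liver, muscle, erythrocyte, brown fat and mesothelium. Alternatives were other scalings, filters, thresholds and models, blocks for slide, scan day and replicate number, averaged probes per gene, and leaving out each pig. Leaving out the libraries with high albumin was added after seeing the data.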

Additional observations from a re-analysis of the deposited data

How the results depend on the processing

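No probe of the 4 genes was called for line or for the interaction under any alternative run, with 0 called also when each of the 48 pigs was left out in turn. The diet difference of each gene kept its sign under all 9 alternatives, which included each line alone and leaving out the libraries with high albumin. The second kept PCK2 probe, at -0.019, was not among these alternatives. For PCK1 the kept sign is no support, since PCK1 was chosen by its diet difference on the same arrays. The size varied, from 1.37 (without those libraries) to 1.90 (within the high RFI line) for PCK1. It ran from 0.060 to 0.23 for PCK2, from -0.33 to -0.16 for GPD1 and from -0.27 to -0.080 for PC. The scalings moved the median diet difference of all genes by at most 0.033. Values near 0 turned their sign: without the libraries with high albumin the line difference of GPD1 was -0.012, its interaction -0.081 and the r of PCK1 and GPD1 -0.0052, and without LF high RFI pig 11 the interaction of PCK2 was -0.052 (leave-one-out range -0.052 to 0.13). Within LF pigs the r of PCK2 was -0.057 with GPD1 and -0.099 with PC. The r of PCK1 with the adipocyte score was -0.054 with the 75th percentile and -0.044 without the 2 farthest pigs, and with the B and plasma cell score -0.022 without the 2 farthest pigs and -0.025 after slide means were subtracted. The cause was not tested.

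Pathway genes called higher in HF pigs were 9, but 14 with normexp and quantile normalization, 3 without the libraries with high albumin (34 pigs) and 2 at a fold over 1.5. The 36 called lower were 7 at a fold over 1.5. The 4 called higher in the low RFI line were 8 with the replicate block, 2 without the libraries with high albumin and 2 at a fold over 1.5. Marker genes called higher were 9, and 5 at a fold over 1.5, and those called lower were 5, but 8 at the mean of a gene's probes, 9 without the libraries with high albumin and 2 at a fold over 1.5. Pairs of the 4 genes with a BH p under 0.05 were 1, but 2 with quantile normalization, 4 within HF pigs and 4 without the libraries with high albumin. The replicate block, which treats pigs with the same number as a pair, gave PCK1 the same line difference of 0.26 with a BH p of 0.80 and PCK2 -0.25 with a BH p of 0.184, and it changed no call of the 4 genes. The labels do not say what the numbers stand for, but pigs with the same number lay on the same slide, with 2 numbers on each. Of 72 pairs with the same number, 37 had deviations that correlated above 0.1 (median 0.12, from -0.27 to 0.52), against a median of -0.013 for pigs with other numbers, and 16 of 48 pigs correlated best with a pig of their own number. Not every pair passed 0.1 and the pigs were not treated as paired, but this does not show that pigs with the same number are independent. The main fit and the permutations leave out what pigs share by number or slide, and blocks for these were run only as alternatives. The part of the shared slide in the correlations between pigs with the same number was not tested.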
